A study of Homo sapiens with 12 samples.

Results

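Chemokine genes were described in HepG2 and LM3 cells with and without knockdown of the long noncoding RNA FASRL. A gene was taken as a member when its listed symbol began with CXCL, CCL or CX3CL followed by a number. This held for 8 of the 8842 listed genes (CCL2, CCL15, CCL16, CCL20, CCL28, CX3CL1, CXCL2 and CXCL8), whereas 43 protein-coding genes of the RefSeq table have such a symbol. A further 7 symbols that denote chemokines or chemokine-like proteins without this pattern (PF4, PPBP, XCL1, XCL2, PF4V1, IL8 and SCYE1) were looked for, and 0 were listed. Of these, IL8 and SCYE1 are older symbols of CXCL8 and AIMP1, which were listed under their present symbols. RNA-seq of poly(A)-selected RNA was available for 12 libraries, with 3 replicates in each of 4 groups. The groups were HepG2 siNC, HepG2 siFASRL, LM3 siNC and LM3 siFASRL, where siFASRL is a small interfering RNA treatment against FASRL and siNC is the negative control treatment. HepG2 and LM3 are established human liver cancer cell lines, and every group had received an siRNA. FASRL itself was not on the list, so its knockdown was not analysed here. The study reports that it checked the efficiency of the knockdown in both lines. It used siRNAs of different sequences against FASRL, and the sample titles give only siFASRL. Effects of a single siRNA sequence therefore cannot be told apart from those of FASRL loss. The study states in general that its cell line experiments were repeated, but not whether the replicates of these libraries were separate cultures, so p-values measure the spread between these libraries, which may be technical.

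Chemokines are small secreted proteins that guide migrating cells through G protein-coupled receptors. CC and CXC chemokines are named after the spacing of their first cysteines, and CX3CL1 (fractalkine) is unusual in being made as a membrane-bound protein on a mucin-like stalk. In the liver they are made by hepatocytes, bile duct cells, endothelial cells and macrophages, and many of their genes are switched on by NF-kappaB, AP-1 and other inflammatory factors. Tumor cells of the liver can also make them, and several draw neutrophils, monocytes or lymphocytes into tissue.

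The deposited values are normalized expression values per gene from RSEM. Whether they are FPKM or TPM is not given in the sources used here. Either scale is per length, so that levels of different genes can be set side by side. They are not counts, the depth of each library is unknown, and no counting error can be given. The listed values summed to between 333193 and 338379 in HepG2 siNC, 347211 and 355094 in HepG2 siFASRL, 316534 and 321859 in LM3 siNC, and 346884 and 348573 in LM3 siFASRL. The list is a subset of genes, and HepG2 differences between -0.20 and -0.04 on the log2 scale are nearly absent from it (5 of 6367 genes with a mean of at least 5, against 578 of 5937 in LM3). How the listed genes were chosen is not given in the sources used here, so every share of genes below refers to the list. The gap lies in HepG2 and not in LM3, so genes with small HepG2 falls may be missing. Shares by adjusted p, or of groups without overlap, may thus be raised in HepG2. Comparisons of such shares and of medians between the lines are therefore not on equal terms.

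In GENCODE v29 (GRCh38), the members lie on 5 chromosomes. CXCL8 (chr4:73740506-73743716, plus strand) and CXCL2 (chr4:74097035-74099293, minus strand) lie 353.3 kb apart, with 7 protein-coding genes between them, 4 of which have a symbol of the pattern used here, and 0 of these 4 were listed. CCL16 (chr17:35976493-35981496, minus strand) and CCL15 (chr17:35996440-36002038, minus strand) are 14.9 kb apart, and CCL2 (chr17:34255218-34257203, plus strand) lies 1719.3 kb from CCL16. The others are CCL20 (chr2:227805739-227817564, plus strand), CCL28 (chr5:43376645-43412391, minus strand) and CX3CL1 (chr16:57372458-57385048, plus strand). CCL15 shares 31.0% of its 50-base transcript stretches with the read-through gene CCL15-CCL14, which overlaps it on the same strand, and an antisense gene covers 620 bases of it. CXCL2 shares 12.5% with its paralogs CXCL3 and CXCL1. The values of CCL15 and CXCL2 are therefore uncertain as far as reads were split among these genes, while for the other 6 members the share was at most 1.2%.

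Under siNC the 2 lines had different chemokine profiles. In HepG2, CCL20 was the most abundant member (80.9 ± 8.91, SD, n = 3), above 93.2% of listed genes. It was followed by CX3CL1 (14.5 ± 0.913), CCL15 (6.08 ± 0.577), CCL28 (4.61 ± 0.240), CXCL8 (2.79 ± 0.131), CCL2 (2.02 ± 0.428), CCL16 (1.82 ± 0.442) and CXCL2 (0.850 ± 0.053). Among neighbors in this order, the replicate values overlapped only for CCL2 and CCL16. In LM3, CCL28 led (3.15 ± 0.214), followed by CXCL2 (0.983 ± 0.057), CCL16 (0.560 ± 0.010) and CCL2 (0.393 ± 0.160), the last pair with overlapping values. CCL20, CX3CL1 and CXCL8 were listed at no more than 0.29, 0.04 and 0.04 in LM3 siNC, and CCL15 was listed at 0 in all 6 LM3 libraries.

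The line difference under siNC (LM3 minus HepG2) was tested with limma on log2(value + 1) in a fit of all 12 libraries. Because of the added 1, such differences understate the change of genes with low values. CCL20 differed by -6.12 (standard error 0.0925, limma adjusted p = 1.59e-15), CX3CL1 by -3.92 (standard error 0.052, limma adjusted p = 4.45e-16) and CCL15 by -2.82 (standard error 0.069, limma adjusted p = 2.18e-13). CXCL8 (-1.89) and CCL2 (-1.11) were also past the threshold of an absolute difference of 1 with an adjusted p under 0.05. These 5 of 8 members compare with 23.1% of the 8285 genes tested, and all 5 were lower in LM3. These 5 and CCL16 passed the filter on low values (at least 1 in at least 3 libraries) only through HepG2, so they had to be lower in LM3, and the count is a description. Of all genes past the threshold, 33.1% were higher in LM3 (634 higher and 1283 lower), or 48.5% under quantile normalization (979 and 1038). CCL16 (-0.84) and CCL28 (-0.43) differed by adjusted p alone, so that 7 of 8 members had an adjusted p under 0.05, against 83.6% of all genes tested. CXCL2 differed by 0.10 with a 95% interval of -0.03 to 0.23 (limma adjusted p = 0.137). The adjusted p of CXCL2 ranged from 3.09e-08, under quantile normalization (difference 0.74), to 0.283 over the alternatives. Under quantile normalization the differences of CCL2 (-0.31, adjusted p = 0.0536), CCL16 (-0.07, adjusted p = 0.539) and CCL28 (-0.07, adjusted p = 0.311) lost their limma calls. Over all alternatives their adjusted p ranged from 3.64e-07 to 0.0536 for CCL2, from 1.04e-05 to 0.539 for CCL16 and from 9.57e-06 to 0.311 for CCL28.

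CX3CL1, the ligand of CX3CR1 on monocytes, natural killer cells and T cells, had the largest fall in HepG2 on the scale of log2(value + 1), whereas CCL2 fell by more as a ratio and with a pseudocount of 0.1 (-3.04 against -2.29). Its values were 15.01, 14.95 and 13.4 in the HepG2 siNC libraries and 2.85, 2.74 and 3.03 after siFASRL. In LM3 they were 0.04, 0 and 0.03 under siNC and 0, 0 and 0 after siFASRL. Every HepG2 siFASRL library was thus far below every HepG2 siNC library, while in LM3 the gene was at or next to 0 in both groups. The HepG2 siFASRL mean was 19.9% of the siNC mean, and CX3CL1 moved from above 56.3% to above 21.4% of listed genes. The log2 difference in HepG2 was -2.00 (standard error 0.063, 95% interval -2.14 to -1.85, limma adjusted p = 2.41e-08). The filter left CX3CL1 out of the limma fit within LM3, since no LM3 library reached a value of 1. A two-sided exact permutation test gave p = 0.4 there (log2 difference -0.03). The difference between the lines was 1.96 (LM3 effect minus HepG2 effect, standard error 0.073, limma adjusted p = 1.2e-09). With LM3 at 0 to 0.04, this value mirrors the HepG2 effect, and a fall of a similar ratio in LM3 would not have been measurable from that level.

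CXCL8 (interleukin 8), which attracts neutrophils through CXCR1 and CXCR2, rose in HepG2. It read 2.64, 2.83 and 2.89 in HepG2 siNC and 6.9, 9.59 and 10.34 in HepG2 siFASRL. In LM3 it read 0.04, 0.03 and 0 under siNC and 0.07, 0.03 and 0 after siFASRL. The HepG2 groups did not overlap, with a wider spread after knockdown, and the LM3 groups overlapped next to 0. The HepG2 mean rose 3.21-fold, a log2 difference of 1.38 (standard error 0.118, limma adjusted p = 3.79e-06). CXCL8 became the second most abundant member in HepG2 (8.94 ± 1.81, SD, n = 3), where it had been the fifth under siNC.

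CXCL2, another neutrophil-attracting ligand of CXCR2, was low in all groups and rose in both lines. Its values were 0.91, 0.81 and 0.83 in HepG2 siNC and 2.16, 2.2 and 2.43 in HepG2 siFASRL. In LM3 they were 0.92, 1.03 and 1 under siNC and 1.3, 1.47 and 1.11 after siFASRL. The siFASRL libraries were above the siNC libraries in each line, by a narrow margin in LM3. In HepG2 the log2 difference was 0.82 (standard error 0.058, limma adjusted p = 1.14e-06), where CXCL2 passed the filter on low values only through siFASRL. In LM3 it was 0.21 (standard error 0.066, limma adjusted p = 0.0189). That call was lost without LM3 siFASRL replicate 1 (difference 0.20, adjusted p = 0.0553) or replicate 2 (difference 0.15, adjusted p = 0.0793), within a range of adjusted p from 9.48e-05 to 0.0793 over the alternatives. Under quantile normalization the LM3 difference was 0.58, and the HepG2 difference was past the threshold (1.13), as it was with a pseudocount of 0.5 (1.03) or 0.1 (1.31).

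CCL20, which draws CCR6-bearing dendritic cells and lymphocytes, read 90.4, 79.54 and 72.74 in HepG2 siNC and 114.73, 109.8 and 112.48 in HepG2 siFASRL. In LM3 it read 0, 0.25 and 0.29 under siNC and 0, 0 and 0.05 after siFASRL. The HepG2 groups did not overlap, and CCL20 was the most abundant member in each. The HepG2 mean rose 1.39-fold (log2 difference 0.47, standard error 0.078, limma adjusted p = 0.000288), less than the threshold of 1. CCL20 made up 69.8% to 72.6% of the summed chemokine values in HepG2 siNC libraries and 84.4% to 86.9% in HepG2 siFASRL libraries. The sum itself was 113.5 ± 10.2 under siNC and 131.5 ± 2.18 after siFASRL in HepG2, and 5.32 ± 0.199 and 3.94 ± 0.220 in LM3 (SD, n = 3).

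The promoters of the 3 members that rose in HepG2 are shown. Many chemokine genes are targets of inflammatory transcription factors, so being such a target does not set these 3 apart from the members that fell. The sequences are the 250 bases before the start site in RefSeq (GRCh38.p14), and 5 of the 8 members were found in that table (CCL15, CCL20, CCL28, CXCL2 and CXCL8). CX3CL1, CCL2 and CCL16, which fell in HepG2, were not found there, so their promoters were not searched. Motifs were searched on both strands, and capitals mark each match. They were the kappaB consensus (3 G, a purine, 2 bases of any kind, 2 pyrimidines and 2 C, found in 10% of 35116 promoter windows of the same length), GGAATTTCC (0.4%), the AP-1 motif TGANTCA (6.6%), the C/EBP motif TTGCNNAA (9.1%) and the TATA box TATAAA (10.7%). GGAATTTCC can lie inside the kappaB consensus and was added after the sequences of CXCL8 and CXCL2 had been seen. The windows are chr4:73740319-73740568 (plus strand) for CXCL8, chr4:74099196-74099445 (minus strand) for CXCL2 and chr2:227813592-227813841 (plus strand) for CCL20. GENCODE exons of the same genes cover 63, 98 and 20 bases of them.
CXCL8: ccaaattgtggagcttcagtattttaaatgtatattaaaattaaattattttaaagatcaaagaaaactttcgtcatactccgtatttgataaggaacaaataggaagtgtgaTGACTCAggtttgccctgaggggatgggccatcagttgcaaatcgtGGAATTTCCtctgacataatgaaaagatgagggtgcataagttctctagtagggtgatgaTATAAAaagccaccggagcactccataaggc
CXCL2: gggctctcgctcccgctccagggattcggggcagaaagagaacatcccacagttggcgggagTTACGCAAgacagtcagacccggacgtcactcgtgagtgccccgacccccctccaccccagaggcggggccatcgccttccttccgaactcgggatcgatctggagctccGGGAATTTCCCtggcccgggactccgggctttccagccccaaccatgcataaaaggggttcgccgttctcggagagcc
CCL20: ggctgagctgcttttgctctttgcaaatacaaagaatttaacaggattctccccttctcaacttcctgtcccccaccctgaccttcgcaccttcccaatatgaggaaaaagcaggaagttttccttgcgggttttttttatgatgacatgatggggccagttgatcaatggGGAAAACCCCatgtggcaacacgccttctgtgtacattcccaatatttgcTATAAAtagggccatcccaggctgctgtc

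In the CXCL8 window, GGAATTTCC lies 91 to 83 bases before the start site, with TGANTCA at 137 to 131 and TATAAA at 31 to 26. In the CXCL2 window the same 9-base run lies at 77 to 69, inside a pair of overlapping kappaB consensus matches at 78 to 68, and TTGCNNAA matches at 188 to 181. The CCL20 window holds a kappaB consensus match at 79 to 70 and TATAAA at 29 to 24. TATAAA also lies at 29 to 24 in the window of CCL15, a member that fell in HepG2. The windows of CXCL8, CCL15 and CCL28 held 0 kappaB consensus matches, and those of CCL20, CCL15 and CCL28 held 0 matches of GGAATTTCC. The CCL15 window lies wholly inside GENCODE exons of its gene. These matches describe letters only, and binding was not measured.

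CCL2 (monocyte chemoattractant protein), the ligand of CCR2, read 2.29, 1.53 and 2.25 in HepG2 siNC and 0.14, 0.07 and 0.3 in HepG2 siFASRL. In LM3 it read 0.57, 0.35 and 0.26 under siNC and 0, 0 and 0.12 after siFASRL. The siFASRL values were below the siNC values in both lines. The HepG2 siFASRL mean was 8.40% of the siNC mean, with a log2 difference of -1.36 (standard error 0.110, limma adjusted p = 2.52e-06). CCL2 passed the filter on low values only through HepG2 siNC and was not tested by limma in LM3, where a two-sided exact permutation test gave p = 0.1, the smallest value that 3 against 3 allows.

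CCL15, a ligand of CCR1, read 6.72, 5.6 and 5.92 in HepG2 siNC and 3.12, 2.47 and 2.57 in HepG2 siFASRL. CCL16, a chemokine made by the liver, read 2.12, 2.02 and 1.31 in HepG2 siNC and 0.42, 0.39 and 0.67 in HepG2 siFASRL. Both were lower in every HepG2 siFASRL library. The log2 difference was -0.93 for CCL15 (standard error 0.0835, limma adjusted p = 5.13e-06) and -0.91 for CCL16 (standard error 0.117, limma adjusted p = 5.49e-05). Both were short of 1 with the added 1 and past it when 0.5 was added in its place (-1.03 and -1.21). Under quantile normalization they were smaller, at -0.70 for CCL15 and -0.59 for CCL16. In LM3, CCL16 read 0.55, 0.57 and 0.56 under siNC and 0.39, 0.52 and 0.74 after siFASRL, with overlapping values.

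CCL28, a chemokine of mucosal epithelia that binds CCR10 and CCR3, was the member with values above 1 in all 12 libraries. It read 4.4, 4.55 and 4.87 in HepG2 siNC and 1.76, 1.84 and 1.52 in HepG2 siFASRL. In LM3 it read 3.04, 3.02 and 3.4 under siNC and 1.93, 2.06 and 2.04 after siFASRL. It was lower after knockdown in each line, without overlap, and the siFASRL means were 37.0% and 63.7% of the siNC means in HepG2 and LM3. The log2 difference was -1.05 in HepG2 (standard error 0.065, limma adjusted p = 5.21e-07) and -0.46 in LM3 (standard error 0.055, limma adjusted p = 8.37e-05). Under quantile normalization the HepG2 difference was -0.76, short of 1. The LM3 difference was then -0.07 and lost its call (adjusted p = 0.305, over a range from 1.06e-05 to 0.305 among the alternatives).

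**Figure D1:**
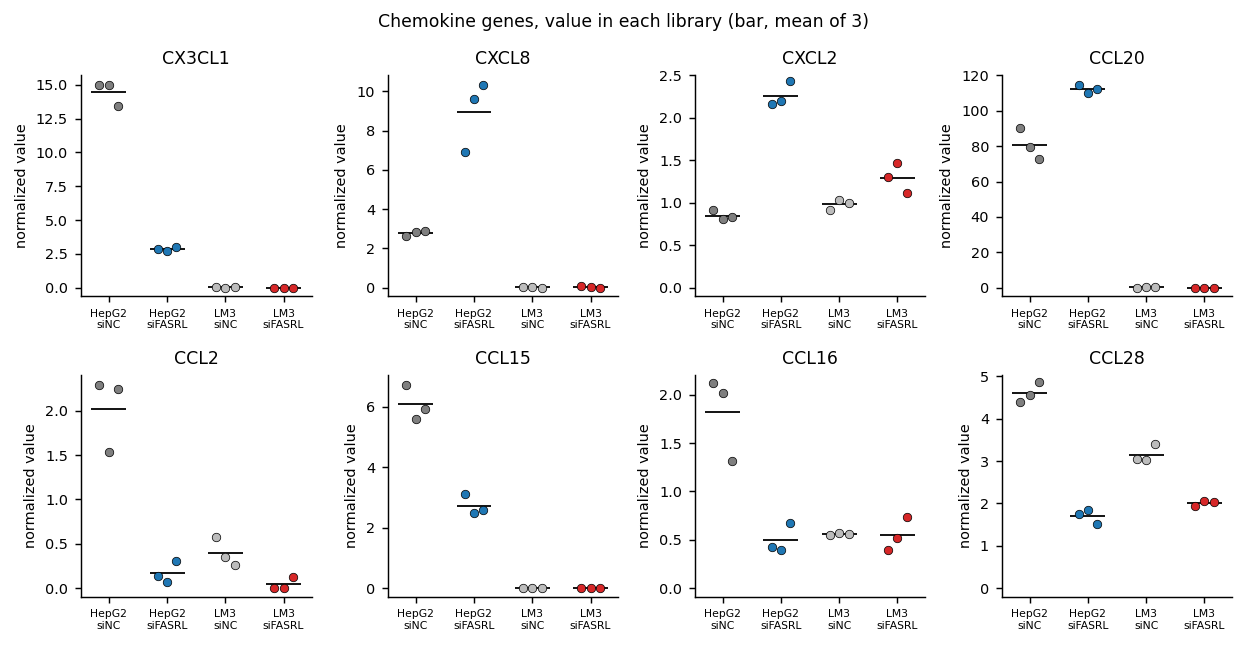
Normalized value of each chemokine gene (y axis, a separate linear scale for each gene) in the 12 libraries by group (x axis), with points for single libraries and bars for the mean of 3. CX3CL1 falls from a mean of 14.5 to 2.87 in HepG2 and lies between 0 and 0.04 in LM3, whereas CCL28 is lower after siFASRL in both lines.

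In the plot of values by library, the HepG2 groups are apart for each of the 8 members. The siFASRL and siNC values did not overlap in HepG2 for 8 of 8 members, but this was also so for 89.6% of the 8144 genes tested there. In LM3 they did not overlap for the 2 members tested with limma, against 80.1% of 7483 genes, nor for CCL2, which the filter left out. Each of the 8 members reached the exact permutation p of 0.1 in HepG2, and CCL2, CCL28 and CXCL2 did so in LM3.

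In HepG2, 4 of 8 members were past the threshold after siFASRL (CX3CL1, CCL2 and CCL28 lower, CXCL8 higher), against 10.4% of 8144 genes tested. Of the latter, 34.7% were higher (294 higher and 553 lower), or 47.0% under quantile normalization (384 and 433). By adjusted p alone, 5 members fell and 3 rose, and 89.1% of all genes tested had an adjusted p under 0.05. The median log2 difference was -0.92 over the members and 0.10 over all genes tested. For CCL2, CCL16 and CXCL2 the filter was met through the higher group only, so these had to differ once tested, and the counts are a description. In LM3, the filter left 2 of 8 members for limma and 0 passed the threshold, against 7.62% of 7483 genes. Of the latter, 18.6% were higher (106 higher and 464 lower), or 31.0% with median-of-ratios scaling (157 and 349) and 37.8% under quantile normalization (159 and 262). Both had an adjusted p under 0.05, and also an unadjusted p under 0.05, against 77.4% of genes by adjusted p. The median-of-ratios factors differed between siFASRL and siNC by 0.12 on the log2 scale in LM3 and by -0.0060 in HepG2. With these factors the LM3 differences were -0.38 for CCL28 and 0.27 for CXCL2, and no tested member (8 in HepG2, 2 in LM3) changed direction under either scaling.

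The difference of the knockdown effect between the lines was tested for all 8 members. It was past the threshold for CX3CL1 (1.96) and CXCL8 (-1.36, standard error 0.143, limma adjusted p = 6.20e-06), that is for 2 of 8 members, against 4.84% of 8285 genes. All 8 had an adjusted p under 0.05, against 46.7% of genes, but CCL2 lost this with a pseudocount of 0.1 (limma adjusted p = 0.0952) and under quantile normalization (difference 0.39 rather than 0.95, limma adjusted p = 0.113). For 6 members no LM3 library reached 1. Of these, CX3CL1, CXCL8, CCL15 and CCL16 differed in LM3 by at most 0.03 in either direction, so that the tested difference restates the HepG2 effect. CCL2 (-0.42) was lower in LM3 siFASRL, while CCL20 (-0.21) had a lower mean there with overlapping values. Both differences rest on values under 1, which the pseudocount weighs. With a pseudocount of 0.1 the difference between the lines went from -0.68 to -1.54 for CCL20 (limma adjusted p = 0.0492), from 0.89 to 1.64 for CCL16 and from -0.61 to -0.96 for CXCL2. The remaining pair, CCL28 and CXCL2, had measurable values in both lines and moved the same way in each, by less in LM3. The LM3 effect minus the HepG2 effect was 0.59 for CCL28 (standard error 0.083, 95% interval 0.41 to 0.77, limma adjusted p = 7.98e-05) and -0.61 for CXCL2 (standard error 0.085, 95% interval -0.80 to -0.43, limma adjusted p = 7.44e-05). Both also stood with an adjusted p under 0.05 in every alternative in which they were tested. The filter of at least 5 left them out.

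**Figure D2:**
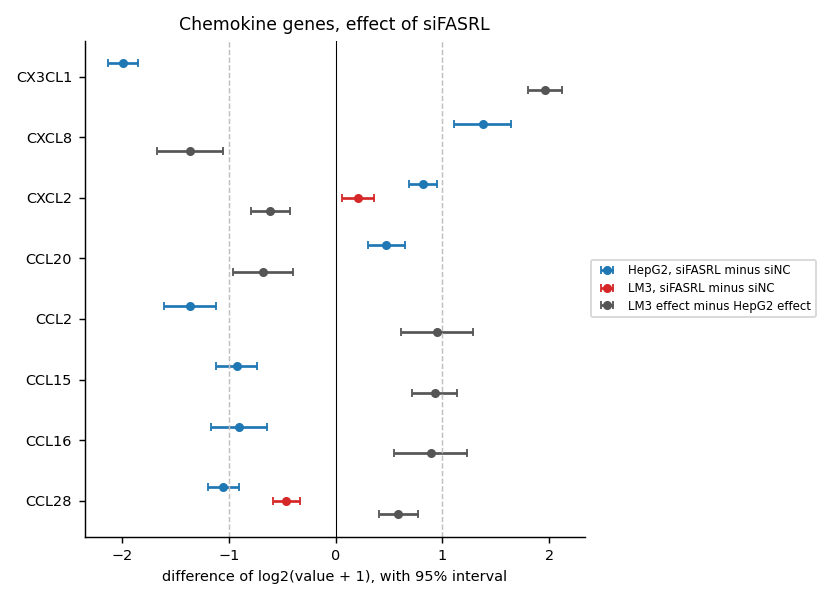
Difference of log2(value + 1) on the x axis, with its 95% interval, for siFASRL minus siNC in HepG2 and in LM3 and for the LM3 effect minus the HepG2 effect, with 1 row for each chemokine gene and dashed lines at -1 and 1. LM3 effects are drawn for the 2 members that passed the filter there, at -0.46 for CCL28 and 0.21 for CXCL2.

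The plot of effects shows that the members did not move as a block in HepG2. CX3CL1 and the 4 CC chemokines CCL2, CCL15, CCL16 and CCL28 lie below 0, and CCL20 with both CXC chemokines lies above 0. After siFASRL the order of levels in HepG2 was CCL20 (112 ± 2.47), CXCL8, CX3CL1 (2.87 ± 0.146), CCL15 (2.72 ± 0.350), CXCL2 (2.26 ± 0.146), CCL28 (1.71 ± 0.167), CCL16 (0.493 ± 0.154) and CCL2 (0.170 ± 0.118), as mean ± SD of 3 libraries. In that order only CX3CL1 and CCL15 overlapped as neighbors. In LM3 siFASRL the order at the top was unchanged, with CCL28 (2.01 ± 0.070), CXCL2 (1.29 ± 0.180) and CCL16 (0.550 ± 0.177).

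The tested genes whose values over the 12 libraries were most like those of each member were named by Pearson's r of log2(value + 1), as a description. For CX3CL1 they were SLC2A2 (r = 0.9998), CADPS2 and MAT1A, which were all listed at 0 in LM3. SLC2A2 encodes a hepatocyte glucose transporter and MAT1A a liver enzyme of methionine metabolism. For CCL15 they were GATA4 (r = 0.9995), COCH and SAA4, and for CCL20 they were BCAT1 (r = 0.9993), KYNU and TM4SF5. For CXCL8 they were PRRX2 (r = 0.998), AREG and TBX3. AREG encodes the growth factor amphiregulin, with means of 5.89 in HepG2 siNC and 24.0 in HepG2 siFASRL, and 0.347 and 0.287 in LM3. For these members r is set largely by the gap between the lines. Members present in both lines had lower values of r, with CASZ1 (0.984), MCTP1 and PLPP1 for CCL28, and PDLIM7 (0.986), PAGR1 and JOSD1 for CXCL2. For CCL2 they were SEC24B (0.993), LOC283710 and ITPRID2, and for CCL16 they were PLXNC1 (0.956), AGXT and GREB1.

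Gene lists related to chemokines are given next. Their counts by adjusted p stand against 89.1% of all genes tested in HepG2 and 77.4% in LM3, and their counts past the threshold against 10.4% and 7.62%. Few chemokine receptors were listed (4 of 28). CCR7, the receptor that guides cells to lymph nodes, rose in HepG2 from 1.25 ± 0.204 to 3.42 ± 0.346 (log2 difference 0.97, standard error 0.084, limma adjusted p = 3.87e-06) and was at most 0.02 in LM3. ACKR2, a scavenger of CC chemokines, fell in HepG2 from 1.96 ± 0.389 to 0.733 ± 0.006 (log2 difference -0.77, limma adjusted p = 2.31e-05), and passed the filter only through siNC, so that it had to differ once tested. Its LM3 values were under 1 and were not tested there. They were higher after siFASRL (0.58, 0.41 and 0.41) than under siNC (0.25, 0.29 and 0.36). ACKR3, a scavenger of CXCL12, rose by 0.35 in HepG2 and 0.22 in LM3 (limma adjusted p = 0.00193 and 0.0222). XCR1 stayed under 1 in every library and was not tested. Thus 0 of 3 tested receptors in HepG2 and 0 of 1 in LM3 were past the threshold, while CCR7 passed it in HepG2 under quantile normalization (1.26). CX3CR1, CXCR1, CXCR2, CCR2 and CCR6 were not on the list.

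Of the chemokine-like factors, 7 of 17 were listed, with 3 higher and 3 lower by adjusted p in HepG2. FAM19A5, a secreted chemokine-like protein, fell past the threshold in HepG2 (3.82 ± 0.779 to 1.14 ± 0.085, log2 difference -1.16, limma adjusted p = 6.07e-06), but not under quantile normalization (-0.85). CMTM8 (-0.82) and CMTM7 (-0.66) fell as well, and CMTM3 (0.51), AIMP1 (0.41) and CMTM6 (0.32) rose. CKLF had a difference of 0.12 (limma adjusted p = 0.119). In LM3, AIMP1 rose by 0.47 (limma adjusted p = 0.000274), CKLF had -0.13 (limma adjusted p = 0.0365, or 0.791 with median-of-ratios scaling) and CMTM6 -0.14 (limma adjusted p = 0.0777).

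Proteases that release or trim chemokines were listed for 8 of 15 genes. In HepG2, 4 rose and 4 fell by adjusted p (against 89.1% of all genes), with 2 higher and 1 lower past the threshold (against 10.4%). MMP3 (stromelysin) was at 0.33, 0.4 and 0.36 in HepG2 siNC and at 20.79, 21.18 and 19.14 in HepG2 siFASRL, and at most 0.05 in LM3. Its log2 difference in HepG2 was 3.97 (standard error 0.059, limma adjusted p = 3.24e-10). MMP3 and MMP1 passed the filter only through siFASRL, so they had to be higher there once tested. The collagenase MMP1 rose from 0.080 ± 0.044 to 1.56 ± 0.327 (log2 difference 1.24) and MMP14 rose by 0.93, past the threshold under quantile normalization (1.21). ANPEP (aminopeptidase N), which trims chemokines at the amino terminus, fell past the threshold in both lines (-1.5 in HepG2 and -1.52 in LM3). ADAM10, a sheddase of CX3CL1, fell by 0.33 in HepG2 and 0.19 in LM3 (limma adjusted p = 0.000396 and 0.0470). The LM3 call of ADAM10 was lost under both scalings (adjusted p = 0.389 and 0.0549), and under median-of-ratios scaling 2 rather than 4 of the 4 tested proteases fell in LM3. FURIN fell in both lines (-0.50 and -0.37), DPP4 fell in HepG2 (-0.83) and was listed at 0 in LM3, and CTSB rose in HepG2 (0.34) and fell in LM3 (-0.24, but with a limma adjusted p of 0.0653 under median-of-ratios scaling).

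Of the proteoglycans and their sulfation enzymes that can hold chemokines on the cell surface, 13 of 15 were listed. In HepG2, 3 of 12 tested rose and 6 fell by adjusted p, and in LM3 3 of 10 rose and 6 fell. SDC4 rose in HepG2 from 23.5 ± 1.10 to 61.4 ± 3.50 (log2 difference 1.35, limma adjusted p = 1.27e-07) and by 0.23 in LM3, and it was past the threshold in HepG2, where GPC3 (glypican 3), short of it here, passed under both scalings (-1.0 with median-of-ratios scaling). SDC1 fell in LM3 from 1.88 ± 0.104 to 0.410 ± 0.061 (log2 difference -1.03, limma adjusted p = 1.28e-06). It passed the LM3 filter only through siNC and was short of 1 under both scalings (-0.98 and -0.68), with a difference of 0.07 in HepG2 (limma adjusted p = 0.387). SDC3 fell in LM3 by 1.24 and in HepG2 by 0.72. The effects differed between the lines for SDC1 (-1.10, limma adjusted p = 9.48e-07) and SDC4 (-1.12, limma adjusted p = 1.04e-07), but for SDC1 by -0.59 under quantile normalization.

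NF-kappaB factors and their inhibitors were listed for 23 of 31 genes, all 23 tested in both lines. By adjusted p, 16 rose and 6 fell in HepG2 (22 of 23, against 89.1% of all genes), and 10 rose and 6 fell in LM3 (16 of 23, against 77.4%). The median log2 differences were 0.27 and 0.14, against 0.10 and -0.06 over all genes tested (the latter 0.05 and 0.03 under the scalings). NFKBIB, an inhibitor that holds NF-kappaB in the cytoplasm, was past the threshold in both lines, from 6.06 ± 1.11 to 20.4 ± 3.22 in HepG2 and from 11.2 ± 2.55 to 33.6 ± 2.31 in LM3 (log2 differences 1.6 and 1.52, limma adjusted p = 2.64e-06 and 1.98e-05). MYD88, the adaptor of Toll-like and interleukin 1 receptors, fell past the threshold in LM3 (-1.18) and fell by 0.65 in HepG2. With median-of-ratios scaling, 15 rather than 10 rose in LM3 (median 0.25), and under quantile normalization 12 rose and 5 fell in HepG2.

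Of the other inflammatory NF-kappaB targets, 22 of 31 were listed. In HepG2, 13 of 18 tested rose and 5 fell by adjusted p (against 89.1% of all genes), with a median of 0.63. In LM3, 7 of 15 rose and 5 fell, with a median of 0.08, or 0.18 under either scaling. Past the threshold in HepG2 were MT2A (263 ± 43.8 to 1405 ± 227, log2 difference 2.41), SOD2 (59.1 ± 2.35 to 211 ± 8.74, 1.82), TNFRSF12A (1.47), BIRC3 (1.2) and CSF1 (1.07), all higher, and CFB (-1.2). MT2A encodes a metallothionein and SOD2 the mitochondrial superoxide dismutase. In LM3 only TNFRSF12A (Fn14, the receptor of TWEAK) was past the threshold (1.49, limma adjusted p = 5.09e-06). The effects differed between the lines past the threshold for MT2A (-2.66), CSF1 (-1.56), PLAU (-1.55), TNFAIP8 (-1.29) and SOD2 (-1.09), each lower in LM3 relative to HepG2. PLAU, and TRAF1 among the genes that rose, passed the HepG2 filter only through siFASRL. PLAU and TNFAIP8 were chosen after their values were seen.

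Interferon and STAT factors were listed for 10 of 17 genes. In HepG2, 4 rose and 4 fell by adjusted p, and SOCS3, an inhibitor of cytokine signaling, rose past the threshold (30.8 ± 1.42 to 74.0 ± 4.65, log2 difference 1.24, limma adjusted p = 2.17e-07). In LM3, 2 rose and 6 fell, and STAT2 fell past the threshold (-1.16, limma adjusted p = 3.38e-07), but not under quantile normalization (-0.98). With median-of-ratios scaling 4 rather than 6 fell in LM3. STAT2 had a difference of -0.94 in HepG2. The SOCS3 effect differed between the lines by -1.0 (limma adjusted p = 8.65e-07), short of 1 under both scalings (-0.95 and -0.65).

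**Figure D3:**
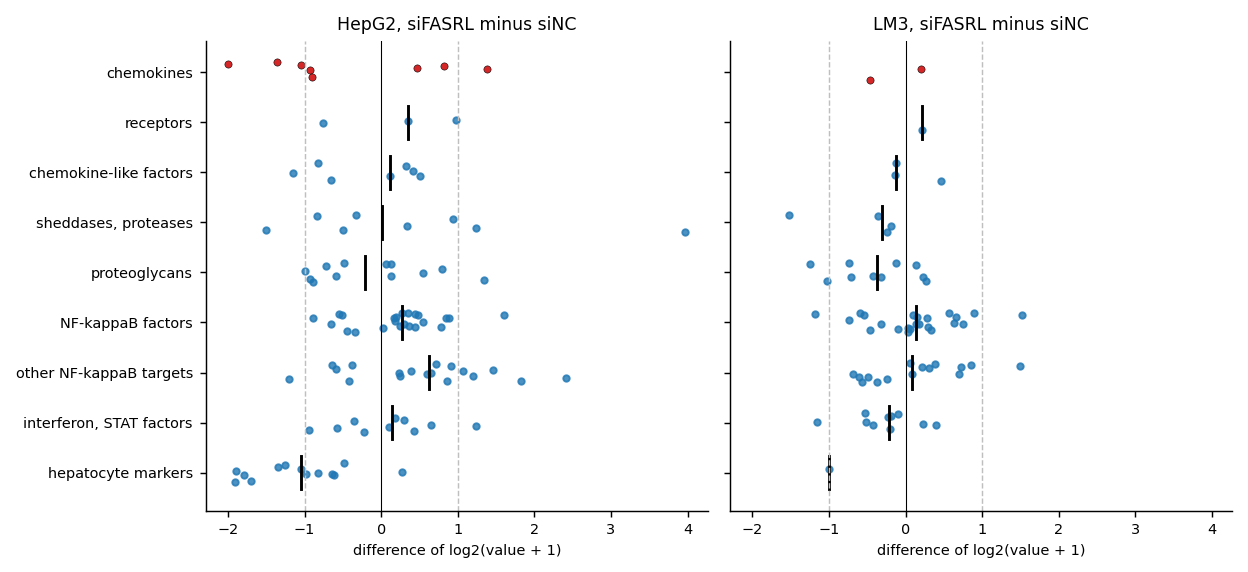
Difference of log2(value + 1), siFASRL minus siNC, on the x axis for the tested members of each gene list, 1 point for each gene, in HepG2 on the left and LM3 on the right, with the chemokines in red. Black bars are list medians, dashed lines are at -1 and 1, and points are spread vertically for legibility. The median of the other NF-kappaB targets is 0.63 in HepG2 and 0.08 in LM3 (0.18 under either scaling), and MMP3 is the point at 3.97.

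The plot of gene lists also shows the hepatocyte markers, most of which fell in HepG2. Of 17 such markers 13 were listed, and 12 of 13 fell by adjusted p in HepG2, 7 of them past the threshold, with 1 (APOA2) higher (0.27), against 89.1% of all genes by adjusted p and 10.4% past the threshold. Under quantile normalization, 12 fell and 0 rose. Their summed level was 5013, 4944 and 4534 in the HepG2 siNC libraries and 2634, 2653 and 2701 in the HepG2 siFASRL libraries, with SERPINA1 as the most abundant gene. ALB (albumin) fell from 815 ± 31.7 to 235 ± 5.62 (log2 difference -1.79, limma adjusted p = 2.14e-08). In LM3 the sum was 15.5, 20.2 and 18.3 under siNC and 8.10, 8.10 and 6.92 after siFASRL. In LM3, the markers other than HNF4A were at most 1.73 (SERPINA1) in any library, while HNF4A was present (14.3 ± 0.095 under siNC and 6.71 ± 0.809 after siFASRL). Each library was made from 1 cell line, so these are levels in that line and not a measure of a share of hepatocytes. Bulk values do not show whether all cells of the line changed or only some. The part of hepatocyte genes in the chemokine differences was not tested.

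Markers of other cell types were at hand for a few genes, and their counts by adjusted p also stand against 89.1% of all genes in HepG2. The libraries are of cultured cell lines, so these values are levels in the lines themselves and do not measure such cell types. Of 11 leukocyte markers 4 were listed (CD68, CORO1A, CSF1R and LYZ). By adjusted p, 0 rose and 3 of 4 fell in HepG2 (2 under quantile normalization, and CSF1R passed the filter only through siNC), where their sum was 132, 129 and 126 under siNC and 99.2, 89.4 and 91.3 after siFASRL. LYZ led in HepG2 siNC (mean 82.7, CD68 41.1), and the means were close after siFASRL (46.1 and 44.9). In LM3 the sum was 15.3 to 18.3 under siNC and 18.5 to 19.1 after siFASRL, led by CD68 (means 14.9 and 17.5). Of 8 endothelial markers only VWF was listed, at no more than 0.35 in any library. Of 9 fibroblast and stellate cell markers 7 were listed, and 5 of 6 tested fell in HepG2 (RGS5, COL3A1 and LUM past the threshold), while ACTA2 rose (0.65), with sums of 112, 113 and 117 under siNC and 63.55, 57.74 and 60.75 after siFASRL. Of 6 bile duct cell markers 5 were listed, 2 higher (KRT7 and KRT19) and 3 lower (SPP1, EPCAM and SOX9) by adjusted p in HepG2. SPP1 changed most (-1.98, from a mean of 359 to 90.5). The sums were 905, 906 and 844 under siNC and 1129, 1184 and 1148 after siFASRL, and rose through KRT7 (338 to 761) and KRT19 (122 to 261). In LM3 the fibroblast sums were 13.8 to 16 and 6.26 to 7.25, and the bile duct sums 188 to 216 and 357 to 368, under siNC and siFASRL. COL1A1 fell in LM3 (-1.45), where RGS5 rose (0.81) and passed the filter only through siFASRL. The part of these genes in the chemokine differences was not tested.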

How the data were processed

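RNA-seq values of 12 libraries (3 each of HepG2 and LM3 with siFASRL or siNC) were used, grouped by the sample labels. The authors filtered reads with SOAPnuke, mapped them with HISAT2, aligned them to coding genes with Bowtie2 and computed expression with RSEM. The deposited values are these normalized values with 2 decimals (FPKM or TPM not given in the sources used here). The labels name hg19, while chromosome accessions in the files are those of GRCh38, so positions were taken from GENCODE v29 by Ensembl identifier. Whether counting used strand is not given in the sources used here. Depth is unknown, and precision rests on 3 replicates. In the table of HepG2 siFASRL replicate 3, 6 further columns repeated LM3 values for all genes and were not used. Spreadsheet dates in place of 17 gene symbols were turned back by gene identifier.

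A gene was tested when 3 or more libraries of the fit had values of 1 or higher. Tests used limma (3.58.1, R 4.3.3) on log2(value + 1), with Benjamini-Hochberg adjustment over all genes tested, within each line and in 1 fit of 12 libraries for both comparisons between lines. The threshold was an absolute difference of 1 with an adjusted p under 0.05. The design named a count test if counts were at hand, and none were used here. Two-sided exact permutation tests compared single genes. The fits were tested on simulated data. Alternatives were the pseudocount, filter, scaling, spread estimate, samples in the fit, fold threshold, replicate block and leaving out each replicate. The members and the gene lists were chosen with earlier results of these data known. Named were all members, genes of the 7 chemokine-related lists past the threshold in at least 1 line (all genes of such lists with at most 8 listed) and the 3 genes most like each member. Other genes, among them cell type markers, were chosen after their values were seen. Promoters are from RefSeq (GRCh38.p14). Python (3.11.15) with pandas (2.3.3) handled the tables and matplotlib (3.10.9) the figures.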

Additional observations from a re-analysis of the deposited data

Results flagged for a closer look

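The limma interaction test compared the siFASRL effect between the lines. Each of the 8 members had an adjusted p under 0.05, against 46.7% of all genes tested. With the fold threshold 2 of 8 passed (CX3CL1 and CXCL8). CCL2 lost its adjusted p with a pseudocount of 0.1 (limma adjusted p = 0.0952) and under quantile normalization (limma adjusted p = 0.113). The HepG2 effect taken from that in LM3 (log2) was 1.96 for CX3CL1, -1.36 for CXCL8, 0.95 for CCL2, 0.93 for CCL15, 0.89 for CCL16, -0.68 for CCL20, -0.61 for CXCL2 and 0.59 for CCL28. With a pseudocount of 0.1 it was -1.54 for CCL20, 1.64 for CCL16 and -0.96 for CXCL2. For 6 of them no LM3 library reached a value of 1, so that they passed the filter through HepG2 only, and only CCL28 and CXCL2 had values near or above 1 in both lines. For CX3CL1, CXCL8, CCL15 and CCL16 the tested difference restates the HepG2 effect, so the counts are a description. No cause was tested.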

How the results depend on the processing

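No difference of a single chemokine changed direction under any alternative run for it, which within LM3 covered CCL28 and CXCL2 alone. Some medians did, among them those in LM3 under both scalings over all genes (-0.062 to 0.045 and 0.026) and over leukocyte markers (-0.035 to 0.055 and 0.198), and that in HepG2 under quantile normalization over the proteases (0.007 to -0.107). For single members, 98 values in HepG2, 28 in LM3, 141 for the difference of effects between the lines and 146 under siNC kept their side of the threshold, 8, 0, 9 and 2 newly passed it, and 1 in HepG2 (CCL28) and 1 under siNC (CCL2) fell short, each under quantile normalization. Counts past the threshold that moved by over 1.5 times were as follows. In HepG2, chemokines went from 4 to 7 with a pseudocount of 0.1 or 0.5, to 2 with a filter of at least 5 and to 8 without a fold threshold, and all genes from 847 to 1373 (0.1) and 7257 (no fold threshold). In LM3, chemokines went from 0 to 2 and all genes from 570 to 5790 without a fold threshold, and all genes to 900 with 0.1. For the difference of effects, chemokines went from 2 to 5 with 0.1 or 0.5 and to 8 without a fold threshold, and all genes from 401 to 664 (0.1) and 3868. Under siNC all genes went from 1917 to 6930 without it.

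Leaving out 1 replicate gave 3 to 5 chemokines and 766 to 871 genes in HepG2, 0 and 485 to 577 in LM3, 2 to 3 and 367 to 408 for the difference of effects, and 4 to 5 and 1818 to 1929 under siNC. Without a HepG2 siNC replicate, CCL2 and CCL16 failed the filter, and without a HepG2 siFASRL replicate CXCL2 did.

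Blocking on replicate numbers left the counts at 4 chemokines and 847 genes in HepG2, 0 and 570 in LM3, and 2 and 401 for the difference of effects. Deviations of samples with the same number correlated at 0.319, 0.370 and -0.204 in HepG2 and -0.079, 0.122 and -0.178 in LM3, so the numbers were not taken as pairs, and not every sample correlated best with its own number.

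The interaction of CCL2 lost its adjusted p with a pseudocount of 0.1 (0.0952) and under quantile normalization (0.113). The causes of these changes were not tested. Without library depth, the error of values under 1 is unknown.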
